A study of Mus musculus with 22 samples.

Results

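The 10 genes described here encode the mTOR kinase, its partners in mTORC1 and mTORC2, and the proteins that switch mTORC1 on or off. They are the rows of the deposited count table named Deptor, Mtor, Mlst8, Rptor, Akt1s1, Rictor, Rheb, Tsc1, Tsc2 and Ddit4, which is 10 of the 24091 rows. Deptor was selected on its counts in CD4 cells, which differed strongly between the treatments, and the others for their place in the pathway. For that reason the values of Deptor in CD4 cells are given as a description, with no test. Fits of CD8 cells share terms with the CD4 libraries, so fitted Deptor values in CD8 cells are treated likewise.

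The cells came from wild-type C57BL/6 mice, whose spleen and bone marrow were transferred into lethally irradiated wild-type BALB/C recipients, a model of allogeneic haematopoietic cell transplantation. Recipients were given either a monoclonal antibody that neutralises IL-2 (anti-IL-2) or control IgG every other day, starting on the day of transfer. T cells of the donor, CD4 and CD8 apart, were collected on day 7 by flow sorting from the colon (called gut here) and the spleen. The 22 libraries form 8 groups by cell type, tissue and treatment. The 3 gut or spleen anti-IL-2 libraries of a cell type, and the 3 spleen IgG libraries, came 1 each from the batches that the labels name 181201, 181212 and 190306. Each gut IgG group has 2 libraries, from batches 181212 and 190306. Whether the libraries in a batch shared recipients, or pooled them, is not in the labels, so p-values measure the spread between these libraries only. In a sorted bulk library, fewer cells of a type and less RNA per cell cannot be told apart.

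mTOR is a kinase that couples growth factors, cytokines and nutrients to protein synthesis and metabolism. In mTORC1 it works with the scaffold Raptor (Rptor) and in mTORC2 with Rictor, while DEPTOR binds mTOR in both complexes and restrains it. RHEB, a small GTPase, activates mTORC1, the TSC1 and TSC2 complex switches RHEB off, and REDD1 (Ddit4) acts through that complex. In T cells, IL-2 receptor signalling feeds this pathway through PI3K and AKT, and mTOR activity is known to favour effector over memory differentiation.

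Total counts ran from 14628806 to 24518362 reads per library. Levels are given as CPM, the count scaled to a common library total, unless said otherwise. The sort markers matched the cell labels: Cd4 was at 1824 to 2424 CPM in CD4 libraries, against 0.327 to 6.77 CPM in CD8 libraries, and Cd8a at 0.119 to 3.62 CPM in CD4 libraries, against 900 to 2153 CPM in CD8 libraries. The label fields disagree on the tissue of the 5 CD8 IgG libraries, and the source name and sample characteristics were followed. Cish stood at 170 and 137 CPM in CD8 gut IgG libraries so assigned, against 41.0, 40.2 and 9.22 CPM in CD8 spleen IgG libraries, the same order as under anti-IL-2 (119, 118 and 277 CPM in gut, against at most 22.9 CPM in spleen). In batch 190306 the labelled treatment difference ran against the other batches over most of the table: 72.5% of 12841 genes in CD4 spleen, 71.4% in CD8 spleen, 61.3% in CD4 gut and 59.9% in CD8 gut had opposite signs. That batch was set apart for this reason, so p-values of fits without it, or against it, do not allow for that choice. Its libraries are named by their labels throughout, and the cause of the turn was not tested. Whether the treatment labels of that batch were exchanged was not tested either; if they were, its treatment differences would turn their sign, and the values fitted over 3 batches and the batch differences would not measure what their names say.

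Deptor spanned a wider range than any other of the 10 genes. It lies on chromosome 15 (mm10, positions 55112317 to 55259271, plus strand) and ran from 0.408 to 74.4 CPM over the 22 libraries, which rests on 8 to 1385 reads. The SD of its log2 CPM was 1.99, larger than that of 99% of the 12841 genes measured, for which the median SD was 0.32. For the other 9 genes the same percentile ran from 2.60% for Mtor to 56.8% for Ddit4. The kinase itself stayed between 74.2 and 93.4 CPM in all libraries.

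Per kilobase of exon, on which levels of different genes can be set side by side, Ddit4 had the highest median at 130.8 CPM per kb. Rictor followed at 11.2, Tsc2 at 10.6, Mlst8 at 9.64 and Mtor at 8.18 CPM per kb. The medians of Rheb, Akt1s1, Tsc1 and Rptor lay between 6.31 and 4.94 CPM per kb. Library ranges of neighbours in this order overlapped, except that Ddit4 stood apart from Rictor and that Mtor (at least 7.34 CPM per kb) stayed just above Rheb (at most 7.29). Deptor had the lowest median, 0.149 CPM per kb, yet its highest library reached 8.39 CPM per kb, inside the range of Mtor.

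The sequence before the RefSeq start is shown for Mtor, the flattest of the 10 genes, and Ddit4, the most abundant, because IL-2 acts on genes through STAT5. The STAT consensus TTCNNNGAA, which reads the same on both strands, was searched in 300-base windows around RefSeq gene starts (GRCm38.p6). Of the 10 genes, 9 had such a window, Deptor being the exception, and 1 of them held the motif, against 8.30% of 32851 windows in the table. Below are the 250 bases before each RefSeq start, 5′ to 3′ on the gene's strand, with the match in capitals. In GENCODE M21 the Ddit4 gene starts at position 59951834, inside the stretch shown, so the last bases of that stretch lie within the annotated gene. Mtor is at chr4:148448332-148448581 (plus strand) and Ddit4 at chr10:59951771-59952020 (minus strand).
Mtor: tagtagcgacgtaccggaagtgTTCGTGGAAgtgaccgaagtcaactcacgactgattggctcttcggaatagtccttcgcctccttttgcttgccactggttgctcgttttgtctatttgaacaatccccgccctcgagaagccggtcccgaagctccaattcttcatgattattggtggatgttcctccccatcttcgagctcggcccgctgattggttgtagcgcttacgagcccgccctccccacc
Ddit4: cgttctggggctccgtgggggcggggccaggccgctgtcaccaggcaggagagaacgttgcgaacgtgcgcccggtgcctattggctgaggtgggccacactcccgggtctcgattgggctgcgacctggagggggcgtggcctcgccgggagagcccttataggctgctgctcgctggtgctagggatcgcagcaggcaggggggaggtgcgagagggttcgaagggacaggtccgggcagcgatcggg
A match is a description of letters and not of binding.

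In gut CD4 cells Deptor was at 4.03, 4.90 and 31.4 CPM in the libraries labelled anti-IL-2 (batches 181201, 181212 and 190306), against 74.4 and 2.46 CPM in those labelled IgG (batches 181212 and 190306). In spleen CD4 cells it was at 1.19, 0.962 and 10.8 CPM in libraries labelled anti-IL-2, against 11.9, 11.9 and 1.21 CPM in libraries labelled IgG. So in both tissues the anti-IL-2 libraries were low and the IgG libraries high in the first 2 batches, the order turned round in batch 190306, and the 3-batch ranges overlapped. Within batches 181201 and 181212 the fitted log2 difference of anti-IL-2 over IgG was -4.04 in gut and -3.47 in spleen CD4 cells. Differences of this kind picked Deptor, so no SE is given for these 2 values or for those over 3 batches. Fitted over all 3 batches the difference was -1.17 in gut and -0.91 in spleen. The gut value turned to 2.56 without the IgG library of batch 181212, and the spleen value ran from -3.05 to -0.02 as each library was left out.

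**Figure D1:**
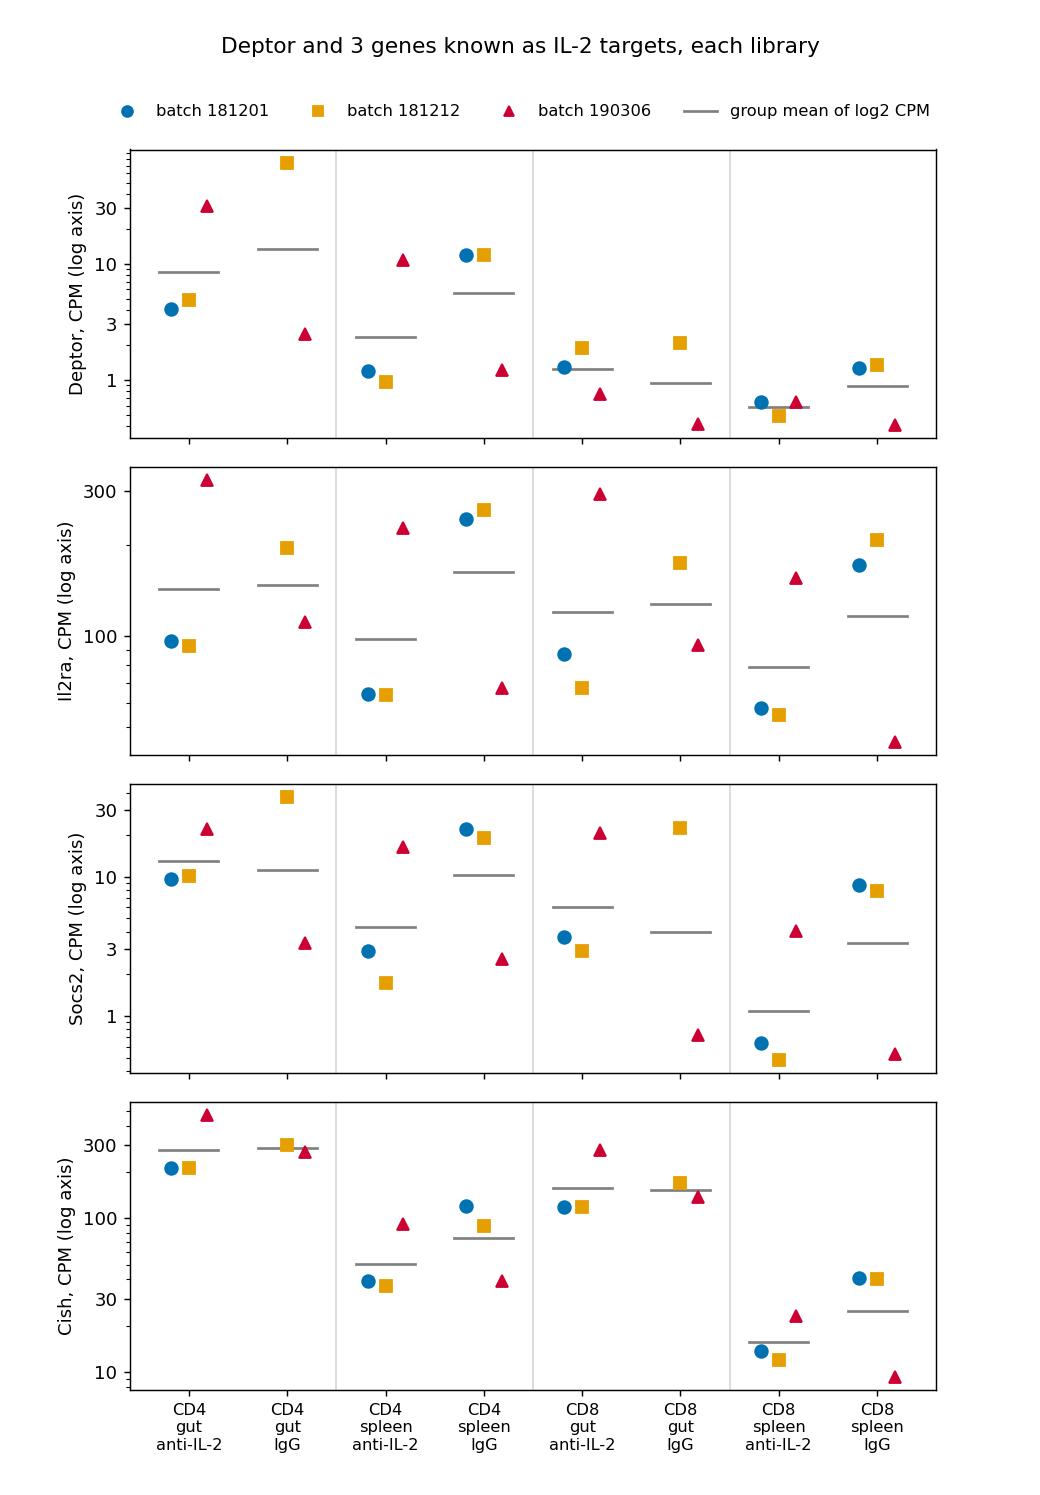
CPM of Deptor, Il2ra, Socs2 and Cish in each of the 22 libraries, on log axes, by group, with the batch as colour and shape and grey lines at the group mean of log2 CPM. Deptor reached 74.4 CPM in CD4 cells and was at most 2.09 CPM in CD8 libraries, and the order of anti-IL-2 and IgG turned round in batch 190306 for all 4 genes.

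Some genes known as IL-2 targets were set beside Deptor: Il2ra, which encodes the IL-2 receptor alpha chain, and the signalling inhibitors Socs2 and Cish. In 10 of 10 pairs of libraries from the same batch, tissue and cell type, the library with more Deptor also had more Il2ra, more Socs2 and more Cish. Among the other members, Akt1s1 and Tsc2 were each higher in that library in 9 of 10 pairs. Ddit4 was higher in 8 of 10 pairs, 5 of 5 in CD4 and 3 of 5 in CD8 cells. Mlst8, Rheb and Rptor were each higher in 7 of 10, Mtor and Tsc1 in 5 of 10, and Rictor in 2 of 10. The same count was not made over all genes. In gut CD4 cells Il2ra was at 96.4, 92.5 and 327 CPM in libraries labelled anti-IL-2, against 195 and 111 CPM in libraries labelled IgG. In spleen CD4 cells it was at 64.2, 63.7 and 227 CPM under anti-IL-2, against 243, 261 and 67.3 CPM under IgG. The pairs are few and the genes share libraries, so the counts are a description.

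Markers of other cells also moved between those pairs. The summed CPM of 9 macrophage markers was lower in the library with more Deptor in 10 of 10 pairs, as was that of 5 general T cell markers, 5 dendritic cell markers and 6 fibroblast and fat cell markers. The macrophage sum ran from 14.1 to 270 CPM in CD4 libraries, with the highest value in the spleen anti-IL-2 library of batch 181201. Fibroblast and fat cell markers summed to 0.222 to 17.5 CPM in CD4 libraries, with up to 4 of 6 genes at 0, and the dendritic cell sum was at most 1.41 CPM. The sum of 4 B cell markers was higher in the library with more Deptor in 4 of 5 CD4 pairs and 4 of 5 CD8 pairs, and ran from 1.35 to 3.47 CPM in CD4 and from 6.28 to 17.8 CPM in CD8 libraries. In CD4 pairs the sums of CD4 and of CD8 T cell markers were each higher in 2 of 5. Pancreas markers reached 18.8 CPM and gut epithelium markers 44.7 CPM in CD4 libraries, both in gut libraries labelled anti-IL-2. Their part in the Deptor difference was not tested.

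In CD8 cells Deptor was low. Gut CD8 libraries had 1.29, 1.89 and 0.758 CPM under anti-IL-2 (23, 33 and 18 reads), against 2.09 and 0.414 CPM under IgG (40 and 8 reads). Spleen CD8 libraries had 0.640, 0.483 and 0.644 CPM under anti-IL-2 (12, 8 and 14 reads), against 1.25, 1.35 and 0.408 CPM under IgG (23, 24 and 10 reads). In spleen the anti-IL-2 libraries lay below the IgG libraries in the first 2 batches and above in batch 190306. The exact 95% Poisson interval, which covers counting error only, was 0.331 to 1.12 CPM for the spleen anti-IL-2 library of batch 181201, against 0.794 to 1.88 CPM for its IgG counterpart, so these intervals overlap.

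Within batches 181201 and 181212, the fitted log2 difference of spleen CD8 Deptor was -1.22 (edgeR quasi-likelihood). It was -1.23 with DESeq2 and -1.20 with limma voom, and ran from -1.51 to -0.98 as each of the 4 libraries was left out. In gut CD8 cells the fitted difference was -0.40. That fit has a batch term shared with the CD4 libraries that picked Deptor, so the values of both tissues are given with no test. Within batch 181212 alone the gut CD8 difference was -0.18. The summed CPM of 3 CD4 T cell markers, 75.0 to 125 CPM in CD8 libraries, was higher in the library with more Deptor in 5 of 5 CD8 pairs, and that of 2 CD8 T cell markers, 1766 to 3279 CPM there, in 0 of 5. The first list holds Cd4, Zbtb7b and Cd40lg. Cd4 itself, at 0.327 to 6.77 CPM in CD8 libraries, was higher in the library with more Deptor in 2 of 5 CD8 pairs. The part of these markers in the Deptor values of CD8 cells was not tested. In both tissues the test of the difference between CD4 and CD8 cells was not run for Deptor, since the treatment difference in CD4 cells picked it. As a share of the CD4 library from the same batch, tissue and treatment, the CD8 library held 2.41% to 53.6% as much Deptor over 11 such pairs, against 0.0167% to 0.289% as much Cd4.

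With Deptor left out, Ddit4 was the member called with treatment. Within batches 181201 and 181212 (14 libraries, 13073 genes), members called at an adjusted p under 0.05 were 0 of 9 in gut CD4 cells and 1 of 9 in spleen CD4 cells. In gut CD8 cells Ddit4 alone was called, and in spleen CD8 cells no member was. The shares of all genes called were 11.7%, 20.1%, 10.7% and 12.1% in the same order. The members are too few to tell whether they were called more or less often than other genes. In gut, batch 181212 alone holds both treatments. Over all 3 batches edgeR called 0 members and 0 of 12841 genes (0%) in any of the 4 comparisons. At an unadjusted p under 0.05 there were then 750, 282, 952 and 148 genes in the same order, and DESeq2 called 8, 0, 9 and 0.

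Ddit4 encodes REDD1, a stress-induced inhibitor of mTORC1. In spleen CD4 cells it was at 221, 238 and 347 CPM under anti-IL-2, against 297, 322 and 308 CPM under IgG (batches in order). In gut CD8 cells it was at 195, 156 and 266 CPM under anti-IL-2, against 252 and 138.5 CPM under IgG. In the first 2 batches each anti-IL-2 library of these populations lay below every IgG library, while in batch 190306 it lay above. Within batches 181201 and 181212 Ddit4 fell by 0.46 ± 0.11 in spleen CD4 cells (adjusted p = 0.0121) and by 0.59 ± 0.13 in gut CD8 cells (adjusted p = 0.0210).

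The spleen CD4 call of Ddit4 was lost without the anti-IL-2 library of batch 181201 (-0.38, adjusted p = 0.114) or without the IgG library of batch 181212 (-0.40, adjusted p = 0.107). The gut CD8 call was lost without the anti-IL-2 library of batch 181212 (-0.38, adjusted p = 0.0893). Gut CD4 cells had 234, 209 and 412 CPM under anti-IL-2, against 278 and 195 CPM under IgG, a difference of -0.37 ± 0.13 (adjusted p = 0.107). Spleen CD8 cells had 194, 227 and 222 CPM under anti-IL-2, against 229, 221 and 230 CPM under IgG, a difference of -0.12 ± 0.11 (adjusted p = 0.555). No member passed the test of a treatment effect that differs between gut and spleen or between CD4 and CD8 cells (edgeR), where 5.39% and 2.39% of genes did between tissues in CD4 and CD8 cells, and 0.918% and 0.0841% between cell types in spleen and gut. Unadjusted p-values under 0.05 numbered 2525, 1935, 1073 and 927 genes in those 4 tests.

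**Figure D2:**
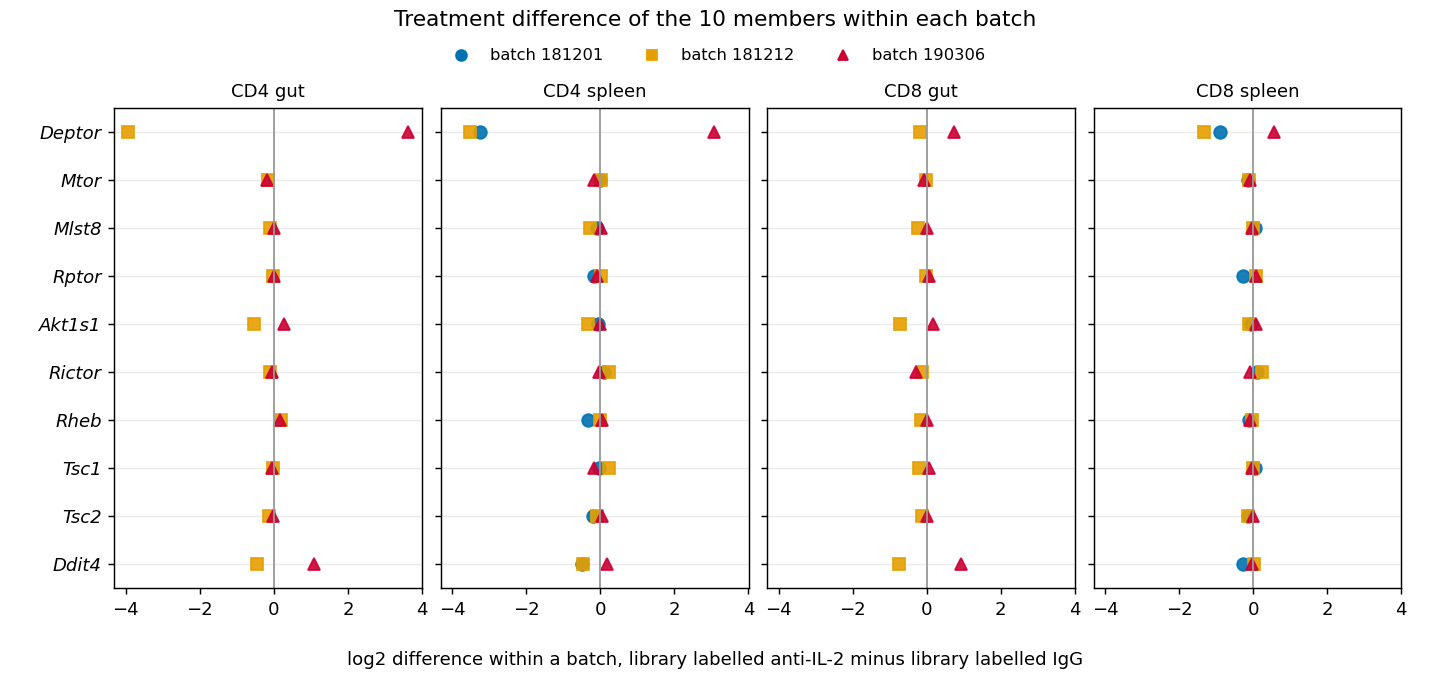
Log2 difference of the library labelled anti-IL-2 minus the library labelled IgG within each batch, for the 10 genes in 4 populations. Deptor lies far from 0 in CD4 cells, at -3.93 in batch 181212 and 3.63 in batch 190306 in gut, Ddit4 in gut CD4 cells lies at -0.45 and 1.09, and Akt1s1 reaches -0.71 in gut CD8 cells.

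The size of the turn in batch 190306 was fitted for the 9 members other than Deptor, with 1 batch term common to the 4 populations. The batch was set apart because its differences had turned. The p-values of this fit are therefore descriptions, and not tests of a split fixed beforehand. There the treatment difference of Ddit4 exceeded that in the other batches by 1.24 ± 0.26 log2 units in gut CD4 (adjusted p = 0.00672), 0.89 ± 0.26 in spleen CD4 (0.0286) and 0.93 ± 0.26 in gut CD8 cells (0.0333). In spleen CD8 cells it was 0.38 ± 0.26 (0.370). Akt1s1, whose product PRAS40 inhibits mTORC1, differed by 0.59 ± 0.19 in gut CD4 cells (0.0373). So 2 of 9 members were called in gut CD4, 1 of 9 in spleen CD4, 1 of 9 in gut CD8 and 0 of 9 in spleen CD8 cells, where 21.4%, 24.2%, 16.7% and 18.6% of all genes were. With a batch term for each population, a fit chosen after the data were seen that leaves 2 residual degrees of freedom, Ddit4 was at 1.54, 0.66, 1.67 and 0.089 in the same order as above, with adjusted p of 0.00135, 0.0108, 0.00119 and 0.764, and Akt1s1 at 0.80 (0.0926). Deptor was not tested here, since the common batch term draws on the CD4 libraries that picked it. Its differences within a batch were -0.89 and -1.32 in spleen CD8 cells of batches 181201 and 181212, against 0.56 in batch 190306, and -0.18 in gut CD8 cells of batch 181212, against 0.73 in batch 190306.

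The kinase and the scaffolds kept close to the same level under both treatments. Mtor had 78.4, 82.8 and 80.1 CPM in gut CD4 cells under anti-IL-2, against 90.4 and 90.9 CPM under IgG, so the groups did not overlap, but the fitted difference of -0.18 ± 0.09 was not called (adjusted p = 0.223). In spleen CD4 cells it had 93.1, 90.2 and 82.6 CPM under anti-IL-2, against 90.0, 87.0 and 93.4 CPM under IgG, which overlap. Rictor in spleen CD4 cells came nearest to a call among the rest, at 0.19 ± 0.06 (adjusted p = 0.0566), and was called under scaling by library size alone (0.22, adjusted p = 0.0244). Fitted differences of Mtor, Mlst8, Rptor, Rheb, Tsc1 and Tsc2 lay between -0.27 and 0.21 in all 4 populations. Akt1s1 was at -0.49 ± 0.18 in gut CD4 (adjusted p = 0.0954) and -0.48 ± 0.18 in gut CD8 cells (adjusted p = 0.106), and nearer 0 in spleen.

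Between tissues, with libraries of the same batch and treatment compared as a set (6 sets, 12150 genes), members moved in both directions. In CD4 cells Rptor and Tsc2 were called higher and Mlst8 and Akt1s1 lower in gut, where 49.8% of all genes were called. In CD8 cells 2 members were higher and 1 lower, where 48.3% of all genes were called. Deptor is left out here in both cell types, since its values are descriptions. Mlst8, a subunit of both complexes, was at 31.5, 34.1 and 39.9 CPM in gut CD4 anti-IL-2 libraries, against 44.7, 39.6 and 54.0 CPM in the spleen libraries of the same batches. It fell by 0.29 ± 0.05 in gut in CD4 cells (adjusted p = 0.000106) and by 0.29 ± 0.05 in CD8 cells (adjusted p = 0.000126), and was lower in gut in 5 of 5 sets of each cell type. A fraction of its exon bases (22.5%) overlaps Bricd5 on the opposite strand, and the strand setting of the counting is not given in the sources used here.

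**Figure D3:**
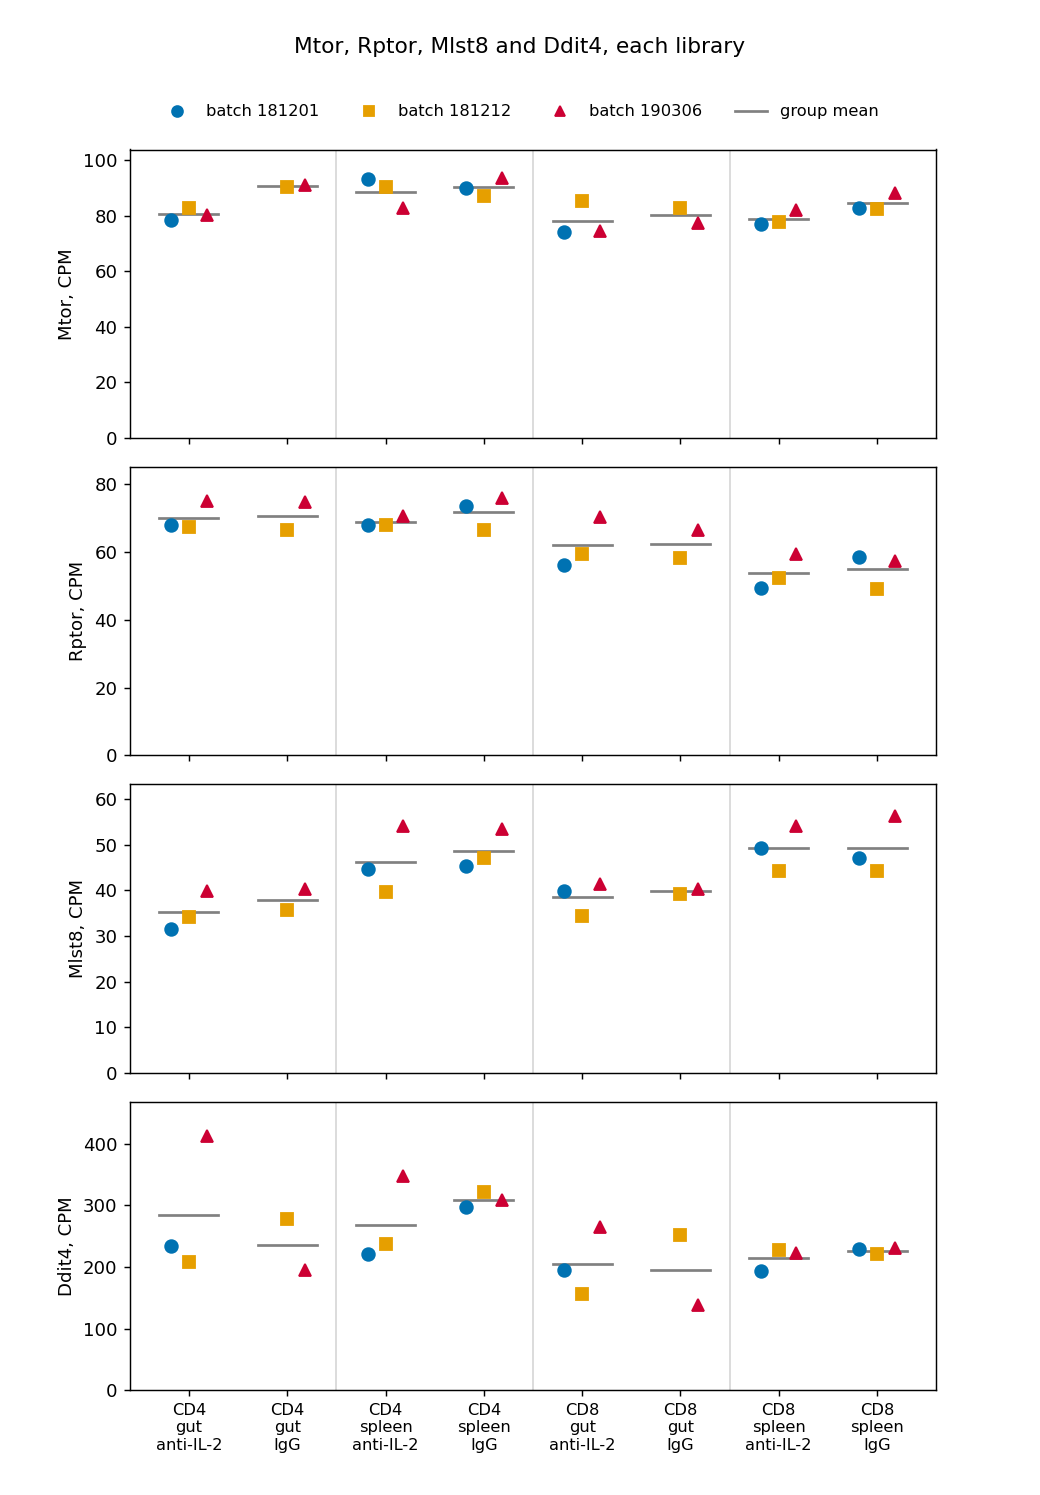
CPM of Mtor, Rptor, Mlst8 and Ddit4 in each of the 22 libraries by group, on axes from 0, with the batch as colour and shape and grey lines at the group mean. Mlst8 was lower in gut than in spleen in each pair of groups, Rptor was lower in CD8 than in CD4 cells, and Mtor stayed between 74.2 and 93.4 CPM.

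Rptor, the mTORC1 scaffold, moved the other way. In CD8 cells it was at 56.3, 59.5 and 70.4 CPM in gut anti-IL-2 libraries, against 49.4, 52.5 and 59.5 CPM in spleen anti-IL-2 libraries, and was higher in gut in 5 of 5 sets, by 0.26 ± 0.04 (adjusted p = 2.33e-05). In CD4 cells the difference was 0.11 ± 0.04 (adjusted p = 0.0188), higher in 5 of 5 sets, and that call was lost when any 1 set was left out (adjusted p up to 0.0933) and with library size alone (0.02, adjusted p = 0.742), and without the block (0.09, adjusted p = 0.255). Tsc2, which turns RHEB off, was higher in gut by 0.16 ± 0.03 in CD4 cells (adjusted p = 0.000429) and by 0.14 ± 0.03 in CD8 cells (adjusted p = 0.000834). The CD4 value of Tsc2 was 0.06 with library size alone (adjusted p = 0.124). Akt1s1 fell in gut CD4 cells by 0.34 ± 0.07 (adjusted p = 0.000792), lower in 5 of 5 sets, and its CD8 difference was -0.05 ± 0.07 (adjusted p = 0.628). Tsc1, the partner of Tsc2, was called lower in gut CD4 cells with DESeq2 (-0.14, adjusted p = 0.0483), RLE factors (-0.14, 0.0480) and library size alone (-0.23, 0.00177), and Rictor with library size alone in CD4 (-0.14, 0.0459) and CD8 cells (-0.16, 0.0262).

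Deptor was higher in gut than in spleen in 5 of 5 CD4 sets, by 1.09 to 2.72 log2 units. Libraries compared here share a treatment, but the IgG set of batch 181201 has no gut library and enters through terms shared with CD8 cells. The CD4 libraries are also those that picked Deptor, so its rise in CD4 cells is given as a description, with no test. The fitted rise was 1.93 with sets of batch and treatment as a block, and 1.86 without that block. In CD8 cells the fitted rise was 1.11 with that block, higher in 5 of 5 sets, and is also given with no test. Whether the gut and spleen difference differs between CD4 and CD8 cells was not tested. Ddit4 did not pass in either cell type, at -0.05 ± 0.14 in CD4 (adjusted p = 0.804) and -0.11 ± 0.14 in CD8 cells (adjusted p = 0.515).

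**Figure D4:**
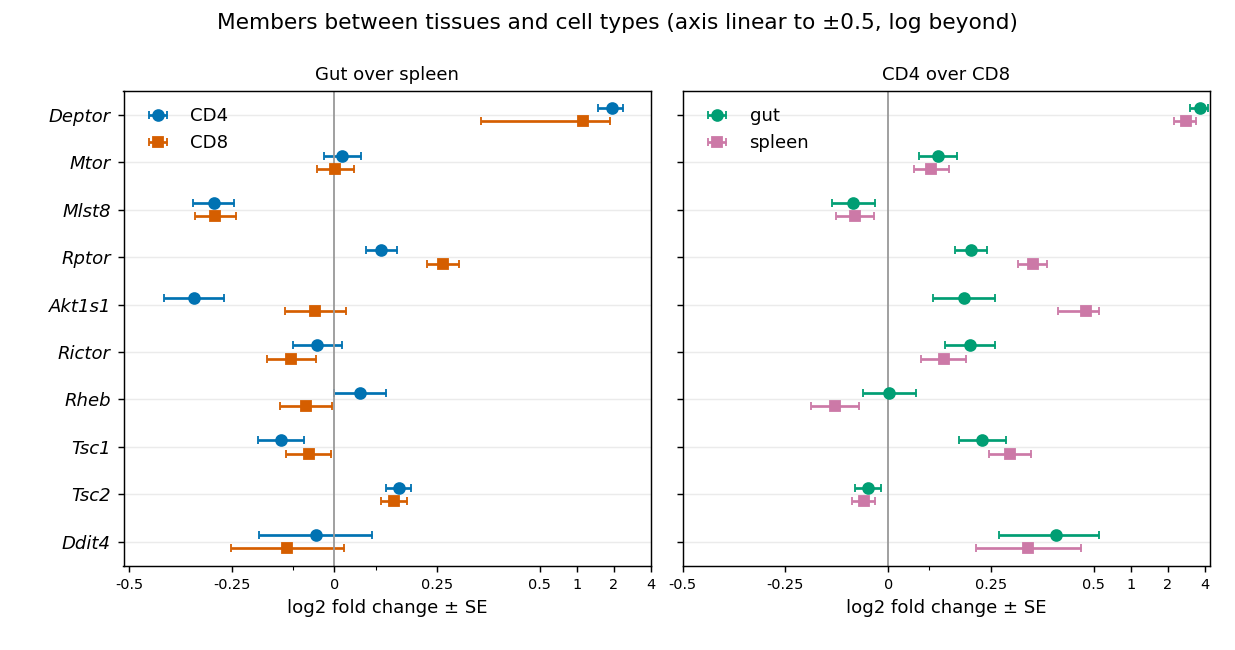
Fitted log2 fold change ± SE of the 10 genes for gut over spleen (left, by cell type) and CD4 over CD8 (right, by tissue), on an axis that is linear to ±0.5 and logarithmic beyond. Deptor values are descriptions, with no test, and any SE drawn for them is not to be read as a test. Mlst8 lies below 0 and Rptor and Tsc2 above 0 for gut over spleen in both cell types, and Rptor, Tsc1 and Ddit4 lie above 0 for CD4 over CD8 in both tissues.

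Between cell types the called members were all higher in CD4 than in CD8 cells: 5 of 9 in gut and 6 of 9 in spleen, where 24% and 30.1% of all genes were called higher (48.3% and 60.6% in either direction). Rptor was higher in CD4 cells by 0.20 ± 0.04 in gut (adjusted p = 0.000368) and by 0.35 ± 0.04 in spleen (adjusted p = 1.71e-07), in 5 of 5 and 6 of 6 sets. Tsc1 was higher by 0.23 ± 0.06 in gut (adjusted p = 0.00282) and by 0.30 ± 0.05 in spleen (adjusted p = 7.67e-05). Akt1s1 was higher in spleen, by 0.48 ± 0.07 (adjusted p = 7.85e-06), and its gut value was 0.19 ± 0.08 (adjusted p = 0.0513), called with DESeq2, RLE factors and limma voom (adjusted p = 0.0454, 0.0420 and 0.0494).

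Ddit4 was higher in CD4 cells by 0.41 ± 0.14 in gut (adjusted p = 0.0242) and by 0.34 ± 0.13 in spleen (adjusted p = 0.0299). Rictor was higher by 0.20 ± 0.06 in gut (0.0121) and 0.13 ± 0.06 in spleen (0.0432), and Mtor by 0.12 ± 0.05 (0.0366) and 0.11 ± 0.04 (0.0375). Calls of these 3 genes were lost under several alternatives. With no filter on low counts, spleen Ddit4 (0.34, adjusted p = 0.0563), gut Mtor (0.12, 0.0536) and spleen Mtor (0.10, 0.0523) were no longer called, and with library size alone gut Mtor was at 0.10 (0.0882). The gut call of Ddit4 was lost without the anti-IL-2 set of batch 181212 or 190306 (adjusted p = 0.0557 and 0.0518), and its spleen call without the IgG set of batch 181201 or 181212 (0.0545 and 0.0876). Without the block its adjusted p was 0.186 in gut and 0.138 in spleen. The gut call of Rictor was lost without the anti-IL-2 set of batch 181201 (0.0602), and its spleen call without either set of batch 181201 or the anti-IL-2 set of batch 181212 or 190306 (at most 0.0771). The gut call of Mtor was lost without the IgG set of batch 181212 or either set of batch 190306 (at most 0.187), and its spleen call without either set of batch 181201 or the anti-IL-2 set of batch 181212 (at most 0.101), or without the block (0.0543). Deptor was higher in CD4 cells in 5 of 5 gut and 6 of 6 spleen sets, with fitted differences of 3.62 and 2.81, given with no test.

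The wider pathway was read from 15 lists holding 137 genes, of which 133 passed the filter for the treatment comparisons. In batches 181201 and 181212, 7 were called higher and 20 lower in gut CD4 cells, 13 and 19 in spleen CD4, 7 and 18 in gut CD8, and 8 and 8 in spleen CD8 cells. Over all genes the shares called were 11.7%, 20.1%, 10.7% and 12.1%, of which 790 of 1533, 1281 of 2627, 720 of 1403 and 792 of 1587 genes were higher. Among kinases that mTORC2 phosphorylates, Prkca (protein kinase C alpha) was higher in all 4 populations, by 0.32 to 0.51, and Sgk1, a salt- and cytokine-responsive kinase, was lower in all 4, by 0.54 ± 0.11 in spleen CD8 to 1.28 ± 0.14 in gut CD8 cells. Of 6 other complex subunits and assembly factors, Prr5, an mTORC2 subunit, fell by 1.30 ± 0.22 in gut CD4 (adjusted p = 0.00471) and by 1.76 ± 0.22 in spleen CD4 cells (adjusted p = 0.000217). Prr5l, its paralogue, was higher in gut CD8 cells by 2.19 ± 0.55 (adjusted p = 0.0301).

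Of 5 tested partners of TSC and RHEB, the sestrin gene Sesn3, whose product restrains mTORC1, was higher in all 4 populations, by 0.40 ± 0.12 in gut CD4, 0.86 ± 0.09 in spleen CD4, 0.43 ± 0.12 in gut CD8 and 0.67 ± 0.10 in spleen CD8 cells. Sesn2 fell by 0.63 ± 0.14 in spleen CD4 and by 0.48 ± 0.14 in spleen CD8 cells. Among 15 tested substrates and translation effectors of mTORC1, the translation inhibitor Pdcd4 fell by 0.50 ± 0.07 in gut CD4, 0.19 ± 0.05 in spleen CD4 and 0.46 ± 0.07 in gut CD8 cells, and the cap-binding factor Eif4e was higher in gut by 0.52 ± 0.11 in CD4 and 0.53 ± 0.11 in CD8 cells. Eif4ebp1, which encodes an inhibitor of that factor, fell by 0.75 ± 0.22 in spleen CD4 cells.

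Among genes for PI3K, AKT and their phosphatases, Pik3ip1, a PI3K inhibitor, fell by 0.92 ± 0.11 in gut CD4 and by 1.03 ± 0.11 in gut CD8 cells; in spleen CD4 cells it was higher by 0.32 ± 0.09 (adjusted p = 0.0196), a value named after it was seen. Of 8 FOXO factors and the T cell genes they induce, Ccr7, a lymph node homing receptor, was higher in all 4 populations, by 1.55 ± 0.16 in spleen CD4 to 2.38 ± 0.44 in gut CD8 cells. Among 11 genes of GATOR1, GATOR2 and KICSTOR, the amino acid sensing branch, 1 was called in any population, Wdr59 at 0.48 ± 0.10 in spleen CD4 cells, and of 13 Rag GTPase, Ragulator and folliculin genes 1 was, Slc38a9 at -0.47 ± 0.10 in gut CD8 cells, where 10.7% to 20.1% of all genes were called in each population. Over all 3 batches none of these genes passed (edgeR), and DESeq2 called 1, in gut CD8 cells.

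Genes known to act on the DEPTOR protein form a list of 8: its ubiquitin ligase, the kinase gene Csnk1a1 and the deubiquitinases. With treatment, Usp3 fell in gut CD4 (by 0.45 ± 0.08), spleen CD4 (by 0.36 ± 0.07) and gut CD8 cells (by 0.39 ± 0.08), and the ligase subunit Skp1a was higher in spleen CD4 cells (0.36 ± 0.06). Between tissues Skp1a fell in gut by 0.43 ± 0.04 in CD4 and 0.35 ± 0.04 in CD8 cells.

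Stimuli known to induce Ddit4 were read from lists for the ATF4 stress response, glucocorticoids and hypoxia. Immediate early genes were read beside them and are not a list of Ddit4 inducers. The part of cell preparation in differences between gut and spleen was not tested. Between tissues, immediate early genes were higher in gut for 9 of 10 genes in CD4 and 10 of 10 in CD8 cells, including Fosb by 4.05 ± 0.57 and 4.15 ± 0.57, where 26.5% and 24.4% of all genes were called higher. Of 6 tested genes of the ATF4 stress response, Atf4 itself was higher in gut by 1.08 ± 0.16 in CD4 and 0.96 ± 0.16 in CD8 cells, and Ddit3 by 1.01 ± 0.21 and 1.21 ± 0.21. Of 6 glucocorticoid-responsive genes, Per1 was higher in gut by 1.26 ± 0.15 in CD4 and 1.23 ± 0.16 in CD8 cells, and Fkbp5 fell by 0.20 ± 0.07 and 0.60 ± 0.07. Ddit4 itself was not called between tissues, as given above. With treatment, Fkbp5 fell by 0.44 ± 0.10 in gut CD4, by 0.72 ± 0.08 in spleen CD4 and by 0.32 ± 0.08 in spleen CD8 cells. The hypoxia-responsive gene Ndrg1 had differences of -1.53 ± 0.22 in gut CD4, -1.44 ± 0.17 in spleen CD4 and -1.06 ± 0.19 in gut CD8 cells, each past the threshold.

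Across the 22 libraries, the genes whose log2 CPM followed Deptor most closely, out of 9595 genes whose mean log2 CPM reached 2, were Csf1 (Pearson r = 0.905), Pdcd4 (0.895), Pttg1ip (0.884), Khnyn (0.882) and Map6 (0.878). Csf1, which encodes a macrophage growth factor, ran from 63.3 to 427 CPM in CD4 and from 15.9 to 78.5 CPM in CD8 libraries. Eomes (-0.923), Cd27 (-0.904), Fgf13 (-0.904), Myo7a (-0.886) and A230050P20Rik (-0.879) ran most nearly opposite. Eomes, a transcription factor of CD8 effector and memory cells, was at 1.33 to 35.1 CPM in CD4 and 22.2 to 170 CPM in CD8 libraries. The points share batch, tissue and cell type, and the CD4 and CD8 libraries form separate clusters, so these values are descriptions.

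The genes most like Ddit4 were Ager (0.836), Atxn1l (0.825), Pygo2 (0.807), Alkbh4 (0.805) and Fech (0.803), and the least like were Nlrc5 (-0.836), Zfp609 (-0.803), Bbip1 (-0.800), 1700030K09Rik (-0.793) and Setbp1 (-0.788). Among the 10 members themselves, Ddit4 went with Akt1s1 at r = 0.723 and with Deptor at r = 0.651. Deptor went with the other 8 at r between -0.262 for Mlst8 and 0.491 for Rptor.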

How the data were processed

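Values are raw read counts per gene as deposited by the authors. The submitters' processing notes name TopHat2, HTSeq 0.9.1 and the build mm10. The library kit keeps strand, per the labels' protocols. The annotation, strand setting and filters are not given in the sources used here. If counting ignored strand, reads of overlapping antisense genes would be shared. Loci and exon lengths came from GENCODE M21. Reads carry no molecular identifiers.

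Groups came from the source name and sample characteristics. Counts were fitted in edgeR 4.0.16 (R 4.3.3) by quasi-likelihood after filterByExpr and TMM scaling, with Benjamini-Hochberg adjustment over all genes tested and a threshold of 0.05. Treatment was fitted as 8 groups and batch, without batch 190306 (5 residual degrees of freedom) and with it (12), and the turn in batch 190306 as a separate treatment effect (8). Tissues and cell types were fitted with the 6 sets of batch and treatment as block (13). The batch term pairs libraries that the labels place in 1 batch. Log2 CPM used a prior count of 2. Libraries of a group differed beyond sampling noise in every pair, by a chi-square per gene of 6.79 to 89.0. Alternatives were DESeq2 1.42.0, limma voom 3.58.1, RLE factors, library size alone, no filter, no block, a batch term in each population, and leaving out each library.

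The 10 members are named in each comparison. From each pathway list at most 4 genes were eligible for naming in a comparison, those with the smallest p among genes past 0.05, and for likeness the 5 genes at each end. Il2ra, Socs2, Cish, Cd4 and Cd8a were named for every comparison where a result turns on them. The members and lists were chosen with earlier results of these data known. Recipients lacking PD-L1, which the series title names, were not analysed here. The result for 1 pathway gene is not reported here.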

Additional observations from a re-analysis of the deposited data

Results flagged for a closer look

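The treatment difference ran otherwise in batch 190306 than in the other batches for 2 of the 9 members tested. The difference between them was 1.24 in gut CD4, 0.89 in spleen CD4 and 0.93 in gut CD8 cells for Ddit4, and 0.59 in gut CD4 cells for Akt1s1, all log2 and past an adjusted p of 0.05 in edgeR. The same test called 21.4% of all genes in gut CD4, 24.2% in spleen CD4, 16.7% in gut CD8 and 18.6% in spleen CD8 cells. That batch was set apart after its treatment differences were seen, so these p-values are descriptions. The cause was not tested.

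Some pathway genes had a treatment difference in batches 181201 and 181212 that differed between gut and spleen by the same test. In CD4 cells the gut minus spleen difference was -1.24 for Pik3ip1, -0.83 for Pdk1, a hypoxia-responsive kinase, -0.90 for Bbc3, a p53 target, and -0.44 for Maf1, a repressor of RNA polymerase III. In CD8 cells it was -1.09 for Pik3ip1, -0.72 for Pdk1, -1.09 for Bbc3, -2.11 for the immediate early gene Egr1, -0.52 for Pdcd4, -0.39 for Prkcq, -0.74 for the egress receptor S1pr1 and -0.66 for Slc38a9. Psat1, a serine synthesis gene, was at 0.54 in CD8 cells. Of all genes, 5.39% in CD4 and 2.39% in CD8 cells were called in this test. Gut has both treatments in batch 181212 alone, so each gut value rests on few libraries.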

How the results depend on the processing

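Treatment calls of members changed under several alternatives, as did calls between tissues and between cell types. Over all genes, calls in spleen CD8 cells numbered 1041 with DESeq2 and 1551 with limma voom, against 1587 in edgeR. In batches 181201 and 181212, calls over all genes also fell in each population without the batch term, and when a library was left out. In spleen CD8 cells Deptor, given with no test, was at -1.23 with DESeq2 and -1.20 with limma voom. It ran from -1.51 to -0.98 as each library was left out. Spleen CD4 Deptor ran from -3.71 to -3.28 in the same way. With library size alone, 2 members were called in spleen CD4 cells. Leaving out libraries gave 0 to 1 members in spleen CD4 and 0 to 2 in gut CD8 cells. For the difference of batch 190306, library size alone left 1 member in gut CD4 and 0 in gut CD8 cells, no filter left 0 in gut CD8 cells, and a batch term in each population, added after the data were seen, left 1 in gut CD4 cells.

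The batch term and the sets pair libraries by labelled batch. Without the replicate block, 3 members, Deptor not among them, were called for gut over spleen in CD4 cells. Leaving out sets gave 4 to 5 members there, a range that counts Deptor although its CD4 value is a description. It gave 3 to 4 in CD8 cells, and for CD4 over CD8 3 to 5 in gut and 4 to 6 in spleen.

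Values that changed direction were uncalled or not tested. As libraries were left out, Ddit4 in spleen CD8 cells ranged from -0.27 to 0.013 in 2 batches and from -0.16 to 0.0076 in 3 batches. Over 3 batches the ranges were for gut CD4 Deptor from -2.98 to 2.56, gut CD8 Deptor from -0.56 to 1.68, gut CD4 Ddit4 from -0.074 to 0.67 and gut CD8 Ddit4 from -0.42 to 0.70. Gut over spleen Ddit4 ran from -0.18 to 0.065 in CD4 and from -0.21 to 0.011 in CD8 cells. The cause of these changes was not tested. Deptor in CD8 libraries rests on 8 to 40 reads, which limits its precision.

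Pathway genes called in gut CD4 cells numbered 17 without the batch term and 15 to 16 with a library left out, against 27 as reported. In spleen CD8 cells a left-out library gave 8 to 12, against 16, and in spleen CD4 cells 20 to 26, against 32. Between tissues, treatment differences in CD4 cells were called for 7 pathway genes with DESeq2 and 9 with limma voom, against 4, and in CD8 cells for 3 without the batch term, against 9.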
